A study of Mus musculus with 10 samples.

Results

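Desmosome genes were followed across 10 mouse mammary tumors, 5 sarcomatoid (spindle cell) carcinomas and 5 adenocarcinomas, each measured on 1 Agilent array with a red and a green channel. The 10 genes are Dsg2, Dsc2, Jup, Pkp1, Pkp2, Pkp3, Dsp, Ppl, Evpl and Perp. They were found by gene name among the probes that are not controls, which gave 21 of the 41174 probes on the array and at least 1 probe for every gene, of the 19505 genes that the probes name. Dsg2 has 5 probes, Dsp 4, Dsc2 3, Ppl 2 and Evpl 2, and the other 5 genes have 1 probe each. All 21 probes are also among the 40197 of the normalized table that the authors deposited.

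The adenocarcinomas (tumors 105, 131, 470, 17 and 85) were primary tumors of Pik3caH1047R;Trp53R270H;MMTV-Cre mice, in which MMTV-Cre switches on both mutant alleles in mammary epithelium. Of the sarcomatoid carcinomas, 3 were mammary tumors (323, 307 and 594) and 2 were lung tumors with the numbers 323 and 307. The lung tumors grew after tail vein injection of cell lines made from the mammary tumors, so the sarcomatoid group holds 3 tumor origins. Per the study's methods, 1 of the 2 origins with a lung tumor was a Pik3caH1047R;Trp53R270H;MMTV-Cre primary tumor. The other was a Pik3caH1047R;MMTV-Cre primary tumor with a spontaneous Trp53R245H mutation, and the labels do not say which of these 2 is 323 and which is 307. Tumor 594, which has no lung tumor, is by elimination the Trp53R270H;MMTV-Cre tumor and carries no Pik3ca allele of the model. All sarcomatoid tumors therefore carried a Trp53 mutation, as did all adenocarcinomas, and no tissue without tumor was measured. The mice were on a C57BL/6 background, and no ages were given in the sources used here. The labels call tumor 594 a sarcomatoid carcinoma and the other 4 sarcomatoid adenocarcinomas.

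Desmosomes are spot-like junctions that fasten neighboring epithelial cells to each other and tie their keratin filaments into a network across the tissue. Desmosomal cadherins (desmogleins and desmocollins) bridge the gap between cells, and their tails bind armadillo proteins (plakoglobin and the plakophilins). Desmoplakin, a plakin, links that plaque to keratin. Epithelia lose these junctions when their cells become spindle-shaped and separate, and transcription factors of the Snail and ZEB families, which bind E-boxes, are known repressors of epithelial junction genes.

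Promoter sequence from the RefSeq table (build GRCm38.p6) is given for 2 of the 10 genes, Dsp and Jup. These genes encode the plakin and the armadillo protein that every desmosomal plaque contains. No window is given for the remaining genes, which does not mean that they have none, and whether their promoters hold an E-box was not tested. Both windows run from 250 bases before to 50 bases after the start of the gene. They are shown because Snail and ZEB factors are measured beside these genes below, and capitals mark an E-box (CAGGTG, or CACCTG, which is the same site read on the opposite strand). The Dsp window is chr13:38151044-38151343 on the plus strand, and the Jup window is chr11:100397741-100398040 on the minus strand.
Dsp: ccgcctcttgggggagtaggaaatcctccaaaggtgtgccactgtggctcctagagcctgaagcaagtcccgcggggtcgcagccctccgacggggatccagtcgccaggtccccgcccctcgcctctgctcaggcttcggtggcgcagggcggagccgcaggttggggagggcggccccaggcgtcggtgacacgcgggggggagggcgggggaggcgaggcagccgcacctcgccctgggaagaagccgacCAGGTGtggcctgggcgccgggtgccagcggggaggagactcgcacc
Jup: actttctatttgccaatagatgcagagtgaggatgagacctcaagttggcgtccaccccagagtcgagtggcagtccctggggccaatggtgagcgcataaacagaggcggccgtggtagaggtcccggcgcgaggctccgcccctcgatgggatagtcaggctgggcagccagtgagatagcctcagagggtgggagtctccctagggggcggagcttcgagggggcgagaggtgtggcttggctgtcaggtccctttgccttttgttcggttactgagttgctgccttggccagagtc

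The Dsp window held 1 E-box, whose first base is base 254 of the window, and the Jup window held 0. Of the 32851 promoter windows searched, 20.2% hold at least 1 E-box of these letters. The grainyhead motif AACCGGTT, which reads the same on both strands, is in 0.146% of the windows and in neither of the windows shown. A match of letters is a description of the window and shows no binding.

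All values below are log2 ratios of tumor over a common reference RNA, so 0 means equal to the reference and 1 means double it. Red was read as the tumor and green as the reference. This direction is likely but not settled, because the labels name Cy3, the green dye, for the tumor RNA. Its basis is that log2 signals over all probes varied across arrays by a mean SD of 0.733 in green and 0.973 in red, and that arrays of 1 scan batch correlated at no less than 0.963 in green and 0.905 in red, a narrow gap. Over the 21 desmosome probes the mean SD was 0.735 in green and 2.07 in red. The study reports Dsp, Krt18 and Epcam as lower and Zeb2 as higher in metastatic tumors, the signs that this reading gives. If the dye label were right, the sign of every difference would turn. A share of 52.2% to 83.0% of probes was well above background in red. Signals were extracted under 3 protocol versions, and arrays of 1 version are called a scan batch. Tumor 323 was alone in batch 1, tumors 307, 594, 105 and 470 made up batch 2, and batch 3 consisted of tumors 131, 17 and 85 with both lung tumors.

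The first comparison asked how the junction genes differ between sarcomatoid carcinomas, which the study treats as metastatic, and adenocarcinomas. All 10 desmosome genes had a lower mean in the sarcomatoid carcinomas, as had 51.3% of all probes. Their median log2 difference was -1.31, beside 0.0015 over the 19505 genes with a probe. The widest gaps were at Perp, Dsp, Pkp3 and Dsg2. None of the genes passed the test, since limma's adjusted p over all probes ran from 0.421 (Jup) to 0.861 (Pkp1), and 0% of all probes passed. Of the 21 probes, 12 were lower at an unadjusted p below 0.05, as were 5.1% of all probes. That fit counts a lung tumor and the mammary tumor of its number as separate arrays. With 1 value per tumor number all 10 genes were still lower. In the main fit 6 of 10 were lower at an unadjusted p below 0.05, as were 5.79% of all genes. With 1 value per tumor number 3 of 10 had such a p, and no share over all genes is given here for that setting. The smallest limma adjusted p there was 0.641. The groups overlapped at every one of the 21 probes (0.685% of all probes were lower without overlap). Adenocarcinoma 470 was among the 3 lowest arrays at 8 of the 10 genes, as the values of each gene show.

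**Figure D1:**
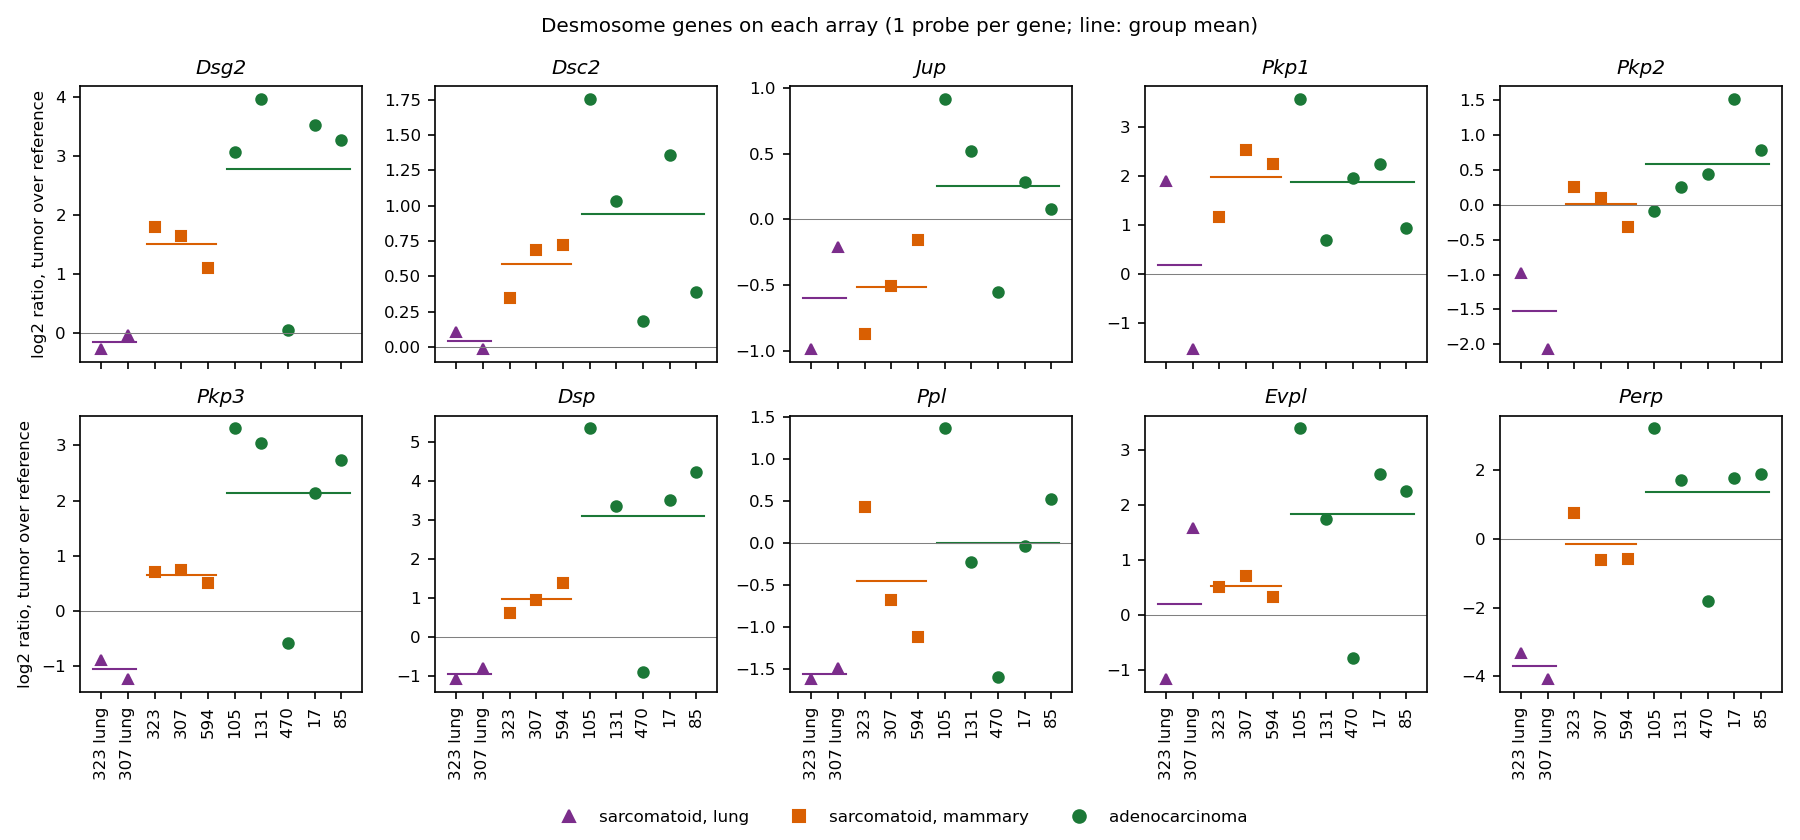
Log2 ratio of tumor over reference (vertical axis, scaled for each gene) on each of the 10 arrays (horizontal axis) for the probe that stands for each gene. Triangles are lung sarcomatoid tumors, squares are mammary sarcomatoid tumors, circles are adenocarcinomas and lines are group means. Adenocarcinoma 470 lies among the 3 lowest arrays for 8 of the 10 genes.

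Dsp encodes desmoplakin, the link from the plaque to keratin filaments. Its brightest probe (chromosome 13, 37617147 to 37617206, mm7) read 0.61 in tumor 323, -1.08 in its lung tumor, 0.94 in tumor 307, -0.81 in its lung tumor and 1.37 in tumor 594. In the adenocarcinomas it read 5.34 (105), 3.36 (131), -0.91 (470), 3.50 (17) and 4.23 (85). Tumor 470 thus sat between the 2 lung tumors, while the other 4 adenocarcinomas lay above every sarcomatoid tumor. The means were 0.21 ± 1.09 (SD, n = 5) and 3.10 ± 2.38 (SD, n = 5). The log2 difference was -2.89 (SE 1.06), 7.43-fold lower, with a limma adjusted p of 0.438.

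The probes of Dsp had one direction and unequal size. A second probe that was well above background on all arrays gave -1.87. The remaining Dsp probes gave -0.48 and -0.50, and neither was well above background in any sarcomatoid tumor. Their red signal was at least 1.47-fold and at least 1.60-fold higher in the adenocarcinomas, a bound set by the background and open to dye bias. It holds for the red channel alone. The fitted ratios were 1.40-fold and 1.41-fold lower in the sarcomatoid carcinomas, with limma adjusted p of 0.401 and 0.487.

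Perp encodes a membrane protein of desmosomes in stratified epithelia and is a known target of p53 and p63. Its probe (chromosome 10, 18579623 to 18579682, mm7) read 0.75 (323), -3.31 (323 lung), -0.62 (307), -4.07 (307 lung) and -0.57 (594) in the sarcomatoid carcinomas. In the adenocarcinomas it read 3.21 (105), 1.71 (131), -1.80 (470), 1.76 (17) and 1.89 (85). Both lung tumors stood below all other arrays, and tumor 470 was the next lowest. The log2 difference was -2.92 (SE 1.12), 7.57-fold lower, with a limma adjusted p of 0.454.

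Among the armadillo proteins, Pkp3 (plakophilin 3, which binds most desmosomal cadherins) had the widest gap. Its probe (chromosome 7, 137507588 to 137507647, mm7) read 0.72 (323), -0.88 (323 lung), 0.74 (307), -1.23 (307 lung) and 0.52 (594), and 3.31 (105), 3.05 (131), -0.58 (470), 2.14 (17) and 2.74 (85). The 3 mammary sarcomatoid tumors lay within 0.66 ± 0.12 (SD, n = 3), and only the lung tumors were below tumor 470. Pkp3 differed by -2.16 (SE 0.75), 4.47-fold lower, with a limma adjusted p of 0.426.

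Jup encodes plakoglobin, which serves both desmosomes and adherens junctions. Its probe (chromosome 11, 100480420 to 100480479, mm7) read -0.87 (323), -0.98 (323 lung), -0.51 (307), -0.21 (307 lung) and -0.16 (594), and 0.92 (105), 0.52 (131), -0.55 (470), 0.29 (17) and 0.08 (85). The gap between groups was narrower than at Pkp3, and every sarcomatoid tumor was below 0 and below each adenocarcinoma but 470. Jup differed by -0.80 (SE 0.27), with a limma adjusted p of 0.421.

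Pkp2 and Pkp1, the other plakophilins, did not follow the same pattern. Pkp2, the plakophilin of simple epithelia and heart (chromosome 16, 15815912 to 15815971, mm7), read 0.26 (323), -0.98 (323 lung), 0.10 (307), -2.07 (307 lung) and -0.31 (594), and -0.09 (105), 0.25 (131), 0.45 (470), 1.53 (17) and 0.79 (85). Tumor 470 was not low here, and the lowest values were those of the lung tumors. Its log2 difference was -1.19 (SE 0.46), with a limma adjusted p of 0.462. Pkp1, a plakophilin of stratified epithelia (chromosome 1, 135757658 to 135757717, mm7), read 1.15 (323), 1.90 (323 lung), 2.54 (307), -1.54 (307 lung) and 2.25 (594), and 3.58 (105), 0.69 (131), 1.96 (470), 2.24 (17) and 0.93 (85). The Pkp1 difference of -0.62 (SE 0.82, limma adjusted p 0.861) rested on the lung tumor of 307. Without that array it was 0.080, and the other 4 sarcomatoid tumors lay inside the range of the adenocarcinomas.

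Dsg2 encodes desmoglein 2 and Dsc2 desmocollin 2, the desmosomal cadherins of simple epithelia. The brightest Dsg2 probe read 1.79 (323), -0.27 (323 lung), 1.64 (307), -0.02 (307 lung) and 1.10 (594), and 3.07 (105), 3.97 (131), 0.051 (470), 3.52 (17) and 3.28 (85). The arrays fell into tiers, with 4 adenocarcinomas at the top, the mammary sarcomatoid tumors in the middle, and the lung tumors with tumor 470 near 0. Its log2 difference was -1.93 (SE 0.74), 3.81-fold lower, with a limma adjusted p of 0.454. The other Dsg2 probes gave -0.81, -0.90, -0.64 and 0.045, and the last of these was well above background on 1 array, that of tumor 17.

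The brightest Dsc2 probe read 0.35 (323), 0.10 (323 lung), 0.69 (307), -0.02 (307 lung) and 0.72 (594), and 1.76 (105), 1.03 (131), 0.18 (470), 1.36 (17) and 0.39 (85). The groups overlapped widely, with tumors 470 and 85 inside the sarcomatoid range. The log2 difference was -0.58 (SE 0.30), with a limma adjusted p of 0.582, and the other Dsc2 probes gave -0.25 and -0.26. At both cadherins the ratio has a weak denominator, since the brightest Dsg2 probe was well above background in green on 3 arrays and the brightest Dsc2 probe on 2.

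Envoplakin (Evpl) and periplakin (Ppl) are plakins that join the desmosome and the cornified envelope of keratinocytes. The brightest Evpl probe (chromosome 11, 116329652 to 116329711, mm7) read 0.51 (323), -1.17 (323 lung), 0.70 (307), 1.58 (307 lung) and 0.33 (594), and 3.40 (105), 1.74 (131), -0.79 (470), 2.56 (17) and 2.26 (85). Here the lung tumor of 307 was the highest of the sarcomatoid carcinomas, unlike at Dsp and Perp. For Evpl the log2 difference was -1.44 (SE 0.76), with a limma adjusted p of 0.582, and the other Evpl probe gave -1.03.

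The brightest Ppl probe (chromosome 16, 4760132 to 4760190, mm7) read 0.42 (323), -1.62 (323 lung), -0.68 (307), -1.50 (307 lung) and -1.13 (594), and 1.36 (105), -0.23 (131), -1.60 (470), -0.04 (17) and 0.52 (85). Tumor 470 was level with the lung tumors, and tumor 323 was higher than 2 of the adenocarcinomas besides 470. The log2 difference was -0.90 (SE 0.56), with a limma adjusted p of 0.661, and the other Ppl probe gave -0.51.

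**Figure D2:**
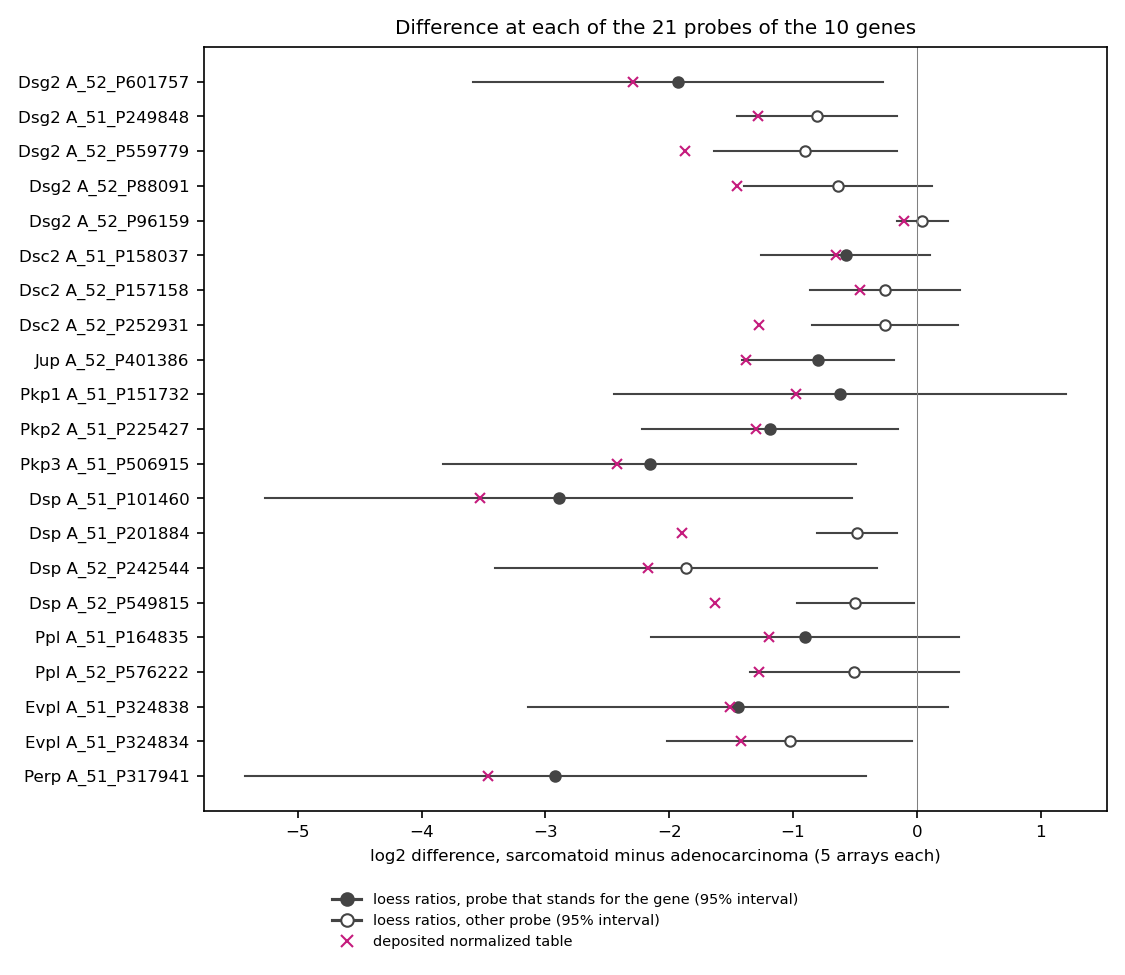
Log2 difference, sarcomatoid minus adenocarcinoma (horizontal axis), at each of the 21 probes (vertical axis). Circles are loess ratios with 95% intervals, filled for the probe that stands for the gene, and crosses are the same difference in the deposited table. Of the 21 probes 20 lie below 0 in loess ratios and 21 in the deposited table.

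In the normalized table that the authors deposited, the same 10 genes were again all lower, with a median log2 difference of -1.45 and 5 of 10 at an unadjusted p below 0.05. Of all its probes, 50.2% were lower and 9.23% had an unadjusted p below 0.05 in either direction. None of the 10 genes passed the threshold there either. That table spreads values more widely, with a slope of 1.26 to 1.49 on the loess ratios, and its centring is not given in the sources used here. The Dsp difference was -3.53 (SE 1.26, limma adjusted p 0.437) and that of Perp -3.47 (SE 1.28, limma adjusted p 0.448). The dim probes of Dsp, which gave -0.48 and -0.50 in loess ratios, gave -1.90 and -1.63 there. Dsp read -1.44 in tumor 470 in that table, just above the lung tumors of 323 (-1.55) and 307 (-2.74) and below the mammary sarcomatoid tumors.

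Tumor 470 decided whether any desmosome gene passed. Without it, 3 of the 10 genes passed over all probes, where 0.828% of all probes were called lower. This tumor was low at most of these same genes, so leaving it out widens their gap. The adjusted p without it are therefore not those of a test chosen in advance. Dsp was lower by a log2 difference of -3.90 (SE 0.61, limma adjusted p 0.0287), and 2 of its other probes passed as well. Pkp3 was lower by -2.84 (SE 0.48, limma adjusted p 0.0324) and Dsg2 by -2.61 (SE 0.46, limma adjusted p 0.0356). The limma adjusted p was 0.0753 for Jup, 0.0974 for Evpl and 0.105 for Perp, and it lay between 0.231 and 0.841 for Ppl, Dsc2, Pkp2 and Pkp1. Leaving out any other array gave 0 of the 10 genes called. The array closest to tumor 470 was that of sarcomatoid tumor 594, at a correlation of 0.822, and both were on the same slide. For the other adenocarcinomas the highest correlation with any array was 0.684 (105), 0.695 (131), 0.746 (17) and 0.719 (85). What this owes to the slide or the sample was not tested.

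Averaged over the 10 genes, tumor 470 was at -0.36 and the other adenocarcinomas at 2.58 (105), 1.61 (131), 1.88 (17) and 1.71 (85). The mammary sarcomatoid tumors were at 0.57 (323), 0.55 (307) and 0.41 (594), and the lung tumors at -0.83 (323) and -0.99 (307). Tumor 470 fell between the mammary and the lung sarcomatoid tumors, and tumor 105 was the highest array for 8 of the 10 genes. Pkp2 and Pkp1 were the genes at which tumor 470 was not among the 3 lowest arrays.

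Within scan batch 2, where tumors 307 and 594 stood against 105 and 470, all 10 genes were lower in the sarcomatoid carcinomas, by a median of -0.63, as were 49.5% of all genes. Against tumor 105 alone the median was -1.98 with 10 of 10 lower, and against tumor 470 alone it was 0.95 with 9 of 10 higher (49.4% and 45.7% of all genes were lower in these). Within scan batch 3, which set the 2 lung tumors against tumors 131, 17 and 85, all 10 genes were lower by a median of -2.18, as were 48.8% of all genes. The Dsp difference was -1.06 in batch 2 and -4.64 in batch 3, and the Perp difference was -1.30 and -5.48. Dsg2 differed by -0.19 in batch 2, the smallest gap of the 10 genes there, and by -3.74 in batch 3. With scan batch as a term in the fit the Dsp difference was -3.01 and that of Perp -3.58, and none of the genes passed, with 5 of 10 at an unadjusted p below 0.05 (8.99% of all probes in either direction) and a smallest limma adjusted p of 0.498.

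On average, markers of epithelial cells moved with these values. The 10 epithelial markers (Epcam, Krt8, Krt18, Krt19, Cdh1, Cldn3, Cldn4, Cldn7, Spint1 and St14) averaged 2.54 to 2.95 in the 4 adenocarcinomas other than 470 and 0.77 to 1.26 in the mammary sarcomatoid tumors. They averaged -1.15 in tumor 470 and -1.85 to -1.71 in the lung tumors, the order that the desmosome genes also took. All 10 had a lower mean in the sarcomatoid carcinomas (median -2.03), 3 of them at an unadjusted p below 0.05, and 0 passed. Fewer epithelial cells in a piece and less RNA per epithelial cell cannot be told apart in bulk tumor RNA.

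Fibroblast markers averaged 1.56 in tumor 470, the highest array, and -2.34 to 0.12 in the other adenocarcinomas, beside -1.17 to 1.27 in the sarcomatoid carcinomas. Their median difference was 0.88, with 10 of 10 higher in the sarcomatoid carcinomas and 1 of 10 at an unadjusted p below 0.05. The lung tumors, with desmosome means of -0.83 (323) and -0.99 (307), had fibroblast means of -1.17 and 1.27. Myeloid markers averaged 1.47 in tumor 470, -0.75 to 0.68 in the other adenocarcinomas and 1.20 to 1.97 in the sarcomatoid carcinomas. Of these 8 genes all were higher in the sarcomatoid carcinomas (median 1.52) and 7 had an unadjusted p below 0.05, as had 4.74% of all probes in that direction. The 6 endothelial markers had a median difference of -0.0070, with 3 lower and 3 higher. The part of these cells in the desmosome values was not tested.

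Keratinocytes of the skin are rich in desmosomes, and some of their markers were high in tumors 105 and 131. The 8 genes (Krt1, Krt10, Krt2, Lor, Flg, Krtdap, Sprr1b and Lce1a1) averaged 1.60 in tumor 105 and 1.42 in tumor 131, and 0.05 to 0.33 on the other 8 arrays. Krtdap read 3.61 in tumor 105 and 2.53 in tumor 131, and Lce1a1 2.52 and 2.54. Other markers did not share this, since Krt1 read 0.10 and Krt2 0.01 in tumor 105, and Flg 0.02 and Sprr1b -0.26 in tumor 131. Lor read 2.50 in the lung tumor of 323 and 1.77 in tumor 594, above its 1.32 in tumor 105. Skeletal muscle markers averaged 5.02 in tumor 105, 3.15 in tumor 470 and 2.46 in tumor 594, and at most 0.68 on the other 7 arrays. Adipocyte markers averaged 3.86 in tumor 105, the highest array. Without tumor 105 all 10 desmosome genes were still lower in the sarcomatoid carcinomas, with 3 of 10 at an unadjusted p below 0.05 (7.99% of all probes in either direction).

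How the junction genes differ by site was asked next, with 2 lung and 3 mammary arrays of sarcomatoid tumors. All 10 genes had a lower mean in the lung tumors, as had 50.8% of all probes. Their median log2 difference was -1.60, beside -0.028 over all genes. Of the 10 genes 0 passed the test, where 0.00486% of all probes passed, and 2 of 21 probes were lower at an unadjusted p below 0.05 (3.28% of all probes). At 7 genes (Dsg2, Dsc2, Pkp2, Pkp3, Dsp, Ppl and Perp) both lung tumors lay below all 3 mammary tumors. Over all probes that was so for 14.3%. Lung and scan batch cannot be told apart among the sarcomatoid arrays, since both lung tumors are in batch 3 and the mammary tumors are in batches 1 and 2. Nor can site be told apart from cell culture and tail vein injection. Both lung tumors grew from injected cell lines, and the mammary tumors were primary tumors.

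**Figure D3:**
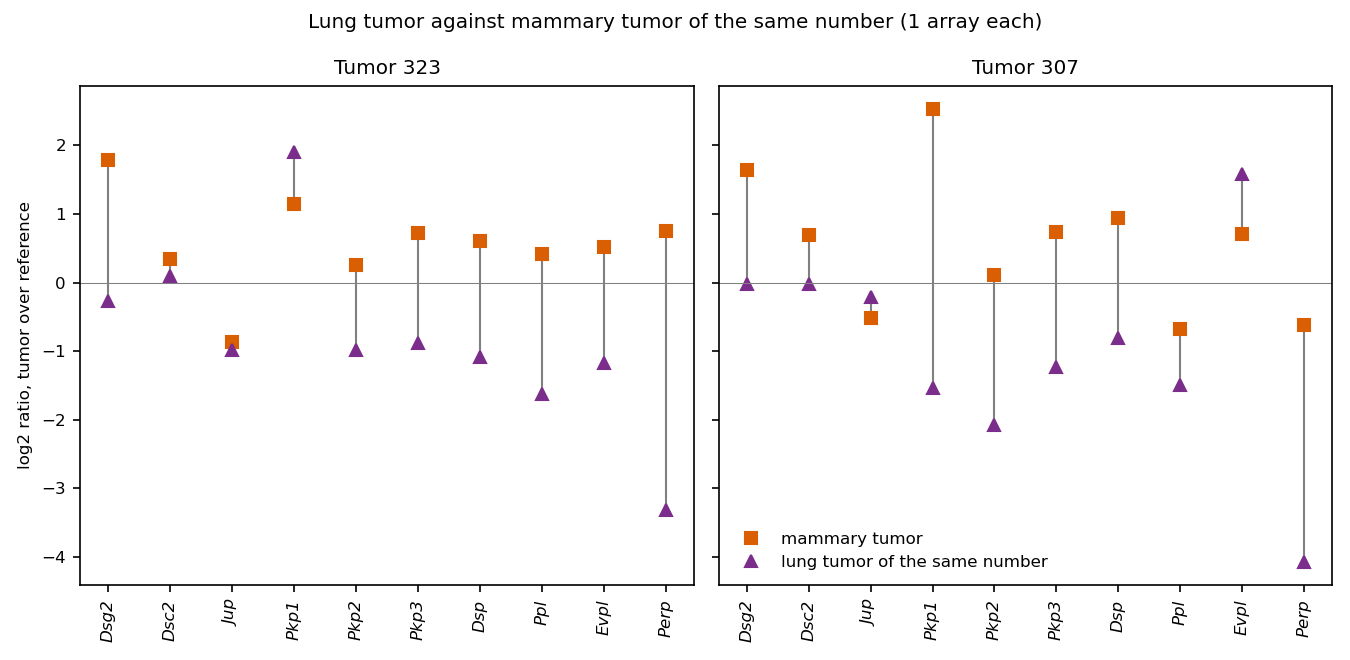
Log2 ratio of tumor over reference (vertical axis) for the 10 desmosome genes (horizontal axis) in the mammary tumor (square) and the lung tumor (triangle) of the same number, 1 array each, joined by a line. The lung tumor was lower at 9 of 10 genes for tumor 323 and at 8 of 10 for tumor 307.

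Perp had the widest gap by site. Its means were -3.69 ± 0.54 (SD, n = 2) in the lung and -0.15 ± 0.78 (SD, n = 3) in the mammary gland, a log2 difference of -3.55 (SE 1.22, limma adjusted p 0.617). Between tumors of the same number it was -4.06 for 323 and -3.45 for 307. Pkp2 had the smallest p of the 10 genes, with means of -1.53 ± 0.77 (SD, n = 2) and 0.02 ± 0.29 (SD, n = 3) and a log2 difference of -1.54 (SE 0.47, limma adjusted p 0.575). By tumor number it differed by -1.24 and -2.17.

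Dsp was at -0.94 ± 0.20 (SD, n = 2) in the lung and 0.97 ± 0.38 (SD, n = 3) in the mammary gland, and Pkp3 at -1.05 ± 0.25 and 0.66 ± 0.12 in the same order. Dsp was lower in the lung tumor by -1.69 for 323 and -1.74 for 307, and Pkp3 by -1.59 and -1.96. The brightest Dsg2 probe was not well above background in red in either lung tumor and was so in all 3 mammary tumors. Its red signal was at least 3.24-fold higher in the mammary tumors, a bound for the red channel alone and open to dye bias. The fitted log2 difference was -1.66 (SE 0.98), 3.15-fold lower in the lung, with a limma adjusted p of 0.789.

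Tumors 323 and 307 did not agree at Pkp1, Evpl and Jup. Pkp1 was higher in the lung tumor of 323 by 0.75 and lower in that of 307 by -4.07. Evpl was lower by -1.69 in the lung tumor of 323 and higher by 0.88 in that of 307, and Jup differed by -0.11 and 0.30. For these genes the spread between the lung tumors exceeded the difference by site, as in Evpl at -0.31 (SE 1.15). With tumor number as a fixed term, 6 of the 10 genes had an unadjusted p below 0.05 and 0 passed (smallest limma adjusted p 0.214). In that fit 12.5% of all probes had such a p in either direction. With scan batch in the model (possible only because the adenocarcinomas span batches), the difference was -4.18 for Perp, -3.58 for Dsp and -2.10 for Pkp2, and 0 genes passed, with 2 of 10 at an unadjusted p below 0.05 (5.83% of all probes in either direction) and a smallest limma adjusted p of 0.762.

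The 10 epithelial markers were lower in the lung tumors too. All 10 had a lower mean there, by a median of -3.02, with 5 at an unadjusted p below 0.05 and 1, Spint1, past the threshold. Spint1, an inhibitor of epithelial serine proteases, read 3.25 (323), 3.21 (307) and 3.85 (594) at the mammary site. Both lung tumors lay below these, at -0.11 (323) and 0.69 (307). It differed by -3.15 (SE 0.28, limma adjusted p 0.0376). The part of epithelial cell content in the desmosome values by site was not tested.

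Markers of lung epithelium were near 0 on average in the lung tumors. The 8 lung epithelium markers (Sftpc, Sftpb, Sftpa1, Scgb1a1, Scgb3a1, Scgb3a2, Ager and Foxj1) averaged 0.25 in the lung tumor of 323 and 0.15 in that of 307, beside -0.00099 to 0.42 on the other 8 arrays. Of these genes 4 were higher and 4 lower in the lung tumors. Scgb3a1, a secretoglobin of airway cells, read 1.59 in the lung tumor of 323, and Sftpc, a surfactant gene, read 0.61 in that of 307.

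Mammary sarcomatoid tumors alone were also set against the adenocarcinomas. These 2 further contrasts share arrays with the first one, so the 3 sets of values are given side by side and are not independent. Of the 10 genes 9 were lower in the mammary sarcomatoid tumors (51.3% of all probes), by a median of -1.02, and Pkp1 was higher by 0.099 (SE 0.87). None passed, and 0% of all probes passed. Of the 10 genes 1, Jup, was lower at an unadjusted p below 0.05, beside 4.56% of all genes. The Dsp difference was -2.13 (SE 1.18, limma adjusted p 0.602), beside -2.89 with the lung tumors included, and Perp differed by -1.50 (SE 0.97, limma adjusted p 0.647) beside -2.92. Jup changed least between both contrasts, at -0.76 (SE 0.33, limma adjusted p 0.548) beside -0.80. Without tumor 470, Dsp (-3.13), Pkp3 (-2.15) and Dsg2 (-1.95) passed in this comparison as well, with limma adjusted p of 0.0457, 0.0321 and 0.0349, as did 0.406% of all probes in either direction. Here too the tumor left out was low at these same genes.

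Other desmosomal and related junction genes, most of them of stratified epithelia, were mostly dim. Of 11 genes (Dsg1a, Dsg1b, Dsg1c, Dsg3, Dsg4, Dsc1, Dsc3, Pkp4, Eppk1, Plec and Dst) 8 were lower in the sarcomatoid carcinomas and 3 higher, with a median of -0.11, and 0 had an unadjusted p below 0.05. Pkp4, Plec and Dst were well above background in red on all 10 arrays, and the other 8 genes on 0 to 5 arrays, so that a small difference was not detectable there. Dsg1a (desmoglein 1 alpha) read 1.64 in tumor 105 and 1.61 in tumor 131, and -0.14 to 0.13 on the other 8 arrays. Krtdap and Lce1a1 were high in the same 2 tumors. Dst, dystonin, a plakin of hemidesmosomes, was the widest at 0.85 (SE 0.54, limma adjusted p 0.676), and Pkp4, an armadillo protein of both junction types, was at -0.54 (SE 0.28, limma adjusted p 0.582). Besides Dst, the higher genes were Plec at 0.12 and Dsg1c at 0.0063.

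The keratins that desmosomes anchor were lower alongside them. All 8 (Krt5, Krt7, Krt8, Krt14, Krt15, Krt17, Krt18 and Krt19) had a lower mean in the sarcomatoid carcinomas, by a median of -1.54, with 2 at an unadjusted p below 0.05 and 0 past the threshold. Krt18 was at -3.23 (SE 1.32, limma adjusted p 0.472) and its partner Krt8 at -2.83 (SE 1.41, limma adjusted p 0.557). Krt8 read -4.43 in tumor 470 and -4.70 and -4.73 in the lung tumors, all far below the 1.11 to 2.13 of the other adenocarcinomas. Krt8, Krt18 and Krt19 are also among the epithelial markers above, so these lists are not independent.

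Of 11 adherens junction genes, 9 were lower and 2 higher in the sarcomatoid carcinomas, with a median of -0.52, 3 at an unadjusted p below 0.05 and 0 past the threshold. Cdh1, E-cadherin, was at -1.33 (SE 0.97, limma adjusted p 0.720) and Cdh2, N-cadherin, at 1.05 (SE 0.68, limma adjusted p 0.676). Cdh1 is also among the epithelial markers above. Afdn, afadin, which ties nectins to actin, was at -0.90 (SE 0.30, limma adjusted p 0.419).

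Transcription and splicing factors of epithelial cells had the direction of the desmosome genes. A probe was found for 11 of 12 genes (Grhl1, Grhl2, Ovol1, Ovol2, Esrp1, Esrp2, Klf4, Klf5, Elf3, Ehf and Trp63). All 11 had a lower mean in the sarcomatoid carcinomas, with a median of -1.21, 6 at an unadjusted p below 0.05 and 0 past the threshold. Grhl2, a grainyhead factor of epithelia, read 4.43 (105), 3.88 (131), -0.33 (470), 3.65 (17) and 4.38 (85), and its difference was -2.26 (SE 0.997, limma adjusted p 0.502). Esrp1, a splicing factor of epithelial isoforms, was at -1.76 (SE 0.63, limma adjusted p 0.436).

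EMT transcription factors, those that drive the epithelial-mesenchymal transition, had the opposite direction. Of 6 genes (Snai1, Snai2, Twist1, Twist2, Zeb1 and Zeb2) 5 were higher in the sarcomatoid carcinomas, with a median of 1.35, 4 at an unadjusted p below 0.05 and 0 past the threshold. Zeb2 was at 2.09 (SE 0.56, limma adjusted p 0.381) and Zeb1 at 1.46 (SE 0.53, limma adjusted p 0.438). In tumor 470 they read 1.28 and 0.83, while the other adenocarcinomas ran from -2.08 to -0.53 for Zeb2 and from -2.21 to -0.81 for Zeb1.

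**Figure D4:**
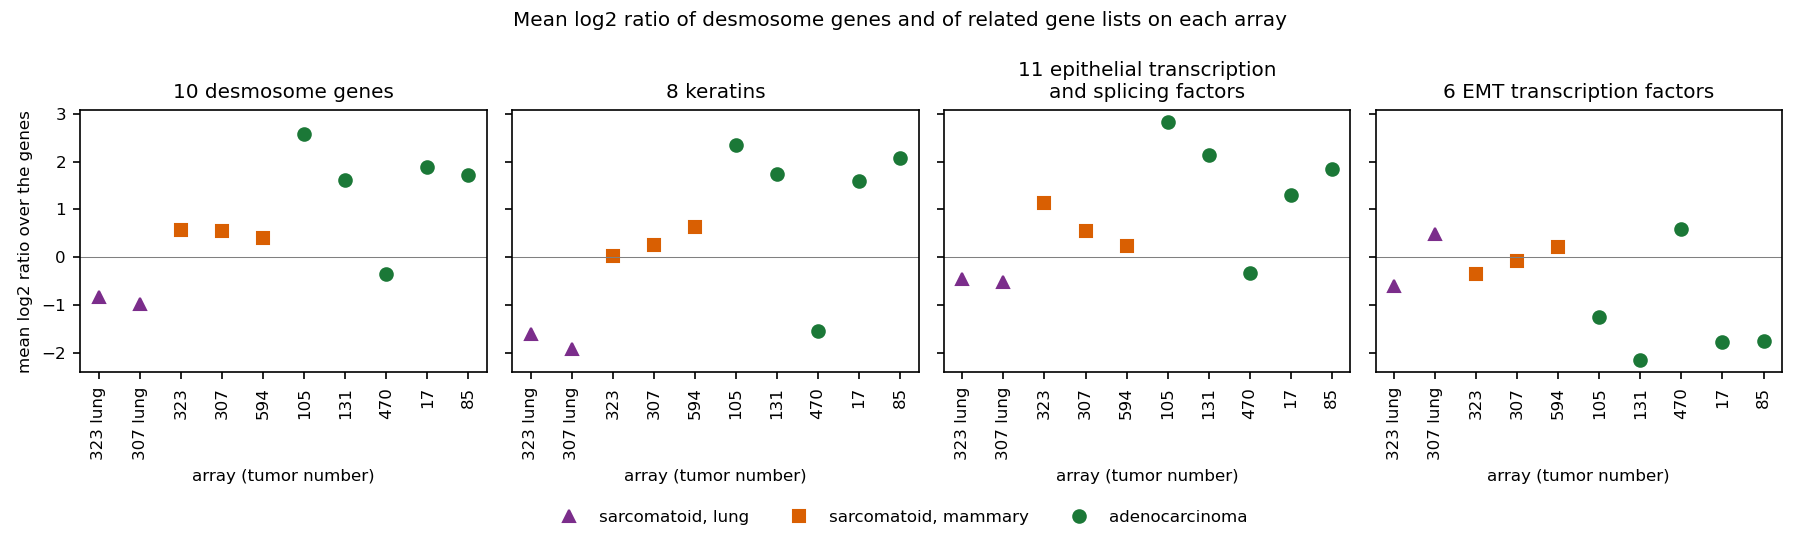
Mean log2 ratio of tumor over reference (vertical axis) over the genes of 4 lists on each of the 10 arrays (horizontal axis), with symbols for lung sarcomatoid tumors, mammary sarcomatoid tumors and adenocarcinomas. Tumor 470 lies at -0.36 for the desmosome genes, -1.55 for keratins, -0.34 for epithelial factors and 0.59 for EMT factors, apart from the other 4 adenocarcinomas in each panel.

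Across the 10 arrays, the genes whose values ran most like those of Dsp were found by Pearson's r among 19379 genes, as a description. Outside the desmosome genes these included Lad1 (ladinin, r = 0.987), Lsr (a tricellular tight junction protein, r = 0.984), Myh14 (a nonmuscle myosin heavy chain, r = 0.981) and Krt17 (a basal keratin, r = 0.977). The arrays share scan batches and a reference. Among the 100 genes most like Dsp were 3 of the other 9 desmosome genes, Pkp3 at rank 5 (r = 0.971), Perp at rank 75 (r = 0.927) and Dsg2 at rank 100 (r = 0.916). Ppl, Jup, Evpl and Dsc2 lay at ranks 253 to 370, Pkp2 at rank 2176 (r = 0.553) and Pkp1 at rank 4300 (r = 0.375).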

How the data were processed

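The 10 arrays, 1 per tumor, were deposited as scanner files, made with the array maker's Feature Extraction software, of spot intensity in both channels. The deposited files also give a log10 ratio of the processed signals, and flags. The authors also deposited a normalized log2 table, made with limma, whose steps are not given in the sources used here. Background was corrected by normexp (offset 50) on median intensity, each array was normalized by loess, and flagged outlier spots were left out. Spots of a probe were averaged. Limma 3.58.1 (R 4.3.3) was fitted to all 41174 probes, two-sided, with Benjamini-Hochberg adjustment at 0.05. The brightest probe over all arrays stood for a gene. From the other lists, genes past the threshold were named, or up to 4 with the widest difference. A gene that this rule or the likeness to Dsp would name is not reported here. The script was tested on simulated data. The offset pulls dim probes toward 0, and the number of arrays limits precision. Replicate numbers follow deposit order and pair no samples; lung and mammary tumors are paired by tumor number. Alternatives were other normalizations, the deposited table, a filter on dim probes, batch, slide and tumor number terms, and each array left out. The desmosome genes and all lists were chosen with earlier results of these data known. The labels do not say that tumors of a group came from separate animals, and p-values measure the spread between these samples.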

Additional observations from a re-analysis of the deposited data

Results flagged for a closer look

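Dsg2 in adenocarcinoma 470 read 0.051, far from the 3.07 to 3.97 of the other 4 adenocarcinomas. The gap was 0.770 of the range of the group, above Dixon's 95% critical value. It was the 1 case among 22 groups of values searched, where chance gives about 1.1.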

How the results depend on the processing

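The median difference of the 10 genes kept its sign under all alternatives run, from -1.70 to -1.02 for sarcomatoid against adenocarcinoma. For lung against mammary tumors it was -0.76 when all probes of a gene were averaged, beside -1.60. No desmosome gene passed except Dsp, Pkp3 and Dsg2 without tumor 470.

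With each array left out, sarcomatoid against adenocarcinoma gave 0 to 633 probes past the threshold (633 without tumor 470) and medians of -1.70 to -1.07. Lung against mammary gave 0 to 34 probes and medians of -1.69 to -1.35, and mammary sarcomatoid against adenocarcinoma 0 to 167 probes and medians of -1.46 to -0.83. Among other settings, the first comparison gave 1 probe with median centring and 3 with slide as a random block or 1 value per tumor number. The lung comparison gave 10 probes in the deposited table, 5 with the sarcomatoid arrays alone and 0 with scan batch as a term. The mammary comparison gave 4 with scan batch as a term.

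With tumor number as a replicate block, the first comparison gave 0 probes and a median of -1.31, and the lung comparison 0 probes and a median of -1.69, with Jup at 0.091.

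Signs turned as follows, and the cause was not tested. With each array left out, Pkp1 ran from -0.94 to 0.080 in the first comparison, above 0 without the lung tumor of 307. In the lung comparison Evpl ran from -1.69 to 1.06 and Jup from -0.47 to 0.30, above 0 without the lung tumor of 323 and, for Jup, also without tumor 594. In the mammary comparison Pkp1 ran from -0.20 to 0.52, below 0 without tumors 307, 594, 131 or 85. It was -0.061 there with median centring and -0.38 with scan batch as a term, and Dsc2 was 0.061 in the deposited table. Signal over background limits Dsg2 and Dsc2, whose green signal was near background on most arrays.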
